A study of Homo sapiens with 4 samples.

Results

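Gene expression was compared between 2 pairs of established human germ cell tumour cell lines. NT2D1, labelled as teratoma, and GCT44, labelled as yolk sac tumour, formed one pair, and TCam-2, labelled as seminoma, and GCT27, labelled as embryonal carcinoma, formed the other. A gene was selected when, on the log2 scale, the lowest value of one pair lay at least 1 (2-fold) above the highest value of the other pair, after values under a floor of 76.4 intensity units had been set to that floor. This distance between the nearest lines of the 2 pairs is called the gap. Of 14926 genes compared, 450 met the rule. The higher set in NT2D1 and GCT44 held 187 genes, 1.25% of the genes compared, and the lower set held 263 genes, 1.76%. The intensities themselves chose the genes, so every level below describes the selected genes, and no p-value is given. Each line was measured on 1 array, so the spread of a line is unknown and the precision is limited by the number of arrays.

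The labels name no treatment and no engineered allele for any of the 4 lines. NT2D1 came from a lung metastasis of a testicular tumour and was grown in DMEM. GCT44 and GCT27 were also grown in DMEM, TCam-2 was grown in RPMI, and all media held serum. Each subtype is represented by 1 line, so line and subtype cannot be told apart. Every selected gene also separates NT2D1 and GCT44 from GCT27, which shared their medium, but only because the rule requires it. The part of the medium was not tested.

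Germ cell tumours retain programmes of the early embryo. Seminoma cells resemble primordial germ cells, embryonal carcinoma cells resemble pluripotent epithelial cells of the early embryo, yolk sac tumours take on extraembryonic endoderm features, and teratomas hold differentiated tissues. Cells of an epithelium are held together by E-cadherin, claudins and related proteins, and the ZEB transcription factors are known to repress many of these genes when cells take on a mesenchymal form. ERK signalling downstream of fibroblast growth factors is limited by its own targets, among them the phosphatase DUSP6. SP8 is a zinc finger transcription factor of limb and forebrain patterning.

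The labels were set against marker genes. Of 8 seminoma markers, 7 reached the floor in TCam-2, against 5 in NT2D1, 4 in GCT44 and 5 in GCT27. TCam-2 had 3819 units of SOX17, with the other lines under the floor, but NANOS3 was under the floor in TCam-2, at 48.4 units. KIT was lowest in TCam-2, with 1160 units in NT2D1 and 1771 in GCT44, against 1144 in TCam-2 and 1375 in GCT27. PDPN did not set TCam-2 apart either, with 1790 units in NT2D1 and 9.58 in GCT44, against 2831 in TCam-2 and 2294 in GCT27. GCT44 had 30689 units of APOA2 and 6631 units of FOXA2, and all 8 yolk sac tumour markers reached the floor there, against 4 in NT2D1, 5 in TCam-2 and 3 in GCT27. SOX2 reached 20575 units in NT2D1, against 18309 in GCT27, and all 7 embryonal carcinoma markers measured reached the floor in both lines, as did 6 in TCam-2 and 2 in GCT44. OTX2 of this set did not mark GCT27, where it was lowest, at 749.9 units, and it was highest in GCT44, at 9762. LEFTY1 had 115 units in NT2D1, against 1255 in GCT27. Of 7 markers of differentiated teratoma that were measured, only PAX6, at 85.3 units, and COL2A1, at 1426 units, reached the floor in NT2D1. In the other lines 2 reached it in GCT44, 1 in TCam-2 and 2 in GCT27, and COL2A1 was highest in GCT44, at 5939 units. This set did not mark NT2D1 off from the other lines. As background, many laboratories use NT2D1 as a model of pluripotent embryonal carcinoma, so its values cannot be taken for those of differentiated teratoma tissue. Of 4 blood cell markers measured, 1 reached the floor in NT2D1, 2 in GCT44, 1 in TCam-2 and 1 in GCT27. Of 5 fibroblast markers, 3 reached it in NT2D1 and 4 in each of the other lines, with summed levels of 7981 units in NT2D1 and 7456 in GCT44, against 10323 in TCam-2 and 7798 in GCT27. The ratio of 3' to 5' signal of ACTB was 4.21 in GCT44 and between 2.49 and 2.97 in the other lines. The same ratio of GAPDH did not set GCT44 apart, at 0.98 in NT2D1 and 1.04 in GCT44, against 1.09 in TCam-2 and 0.90 in GCT27. The part of these RNA quality measures in the results was not tested. Without GCT44, 711 genes were higher and 671 lower in NT2D1, a count that can only grow when a line is left out.

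Of the 450 selected genes, 41.6% were higher in NT2D1 and GCT44. With arrays scaled to the spiked-in hybridization controls, 115 genes were higher and 405 lower, so that 22.1% were higher. That scaling moved the median difference of all genes to -0.19 on the log2 scale, against 0.01 as deposited. The other ways of splitting the 4 lines into pairs gave 588 genes for NT2D1 with GCT27 against TCam-2 with GCT44, and 290 for GCT27 with GCT44 against TCam-2 with NT2D1. Across the genes compared, Pearson's r was 0.85 between NT2D1 and GCT44 and 0.88 between TCam-2 and GCT27. NT2D1 and GCT27 had the highest r of the 6 pairs of lines, at 0.91. These correlations are across 14926 genes, which are not independent replicates and share the scaling of the arrays.

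The selected genes with the widest gaps are shown in the heat map of the 15 widest gaps each way. AGMAT, a member of the agmatinase family, had the widest gap of the higher set, and ERVH48-1, an endogenous retroviral gene whose product suppressyn is known to block cell fusion in the placenta, had the widest gap of the lower set. In the higher set 34 of 187 genes reached a gap of 2 on the log2 scale and 6 reached 3, and in the lower set 63 of 263 reached 2 and 18 reached 3. The median gap was 1.39 for the higher set and -1.46 for the lower set.

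**Figure D1:**
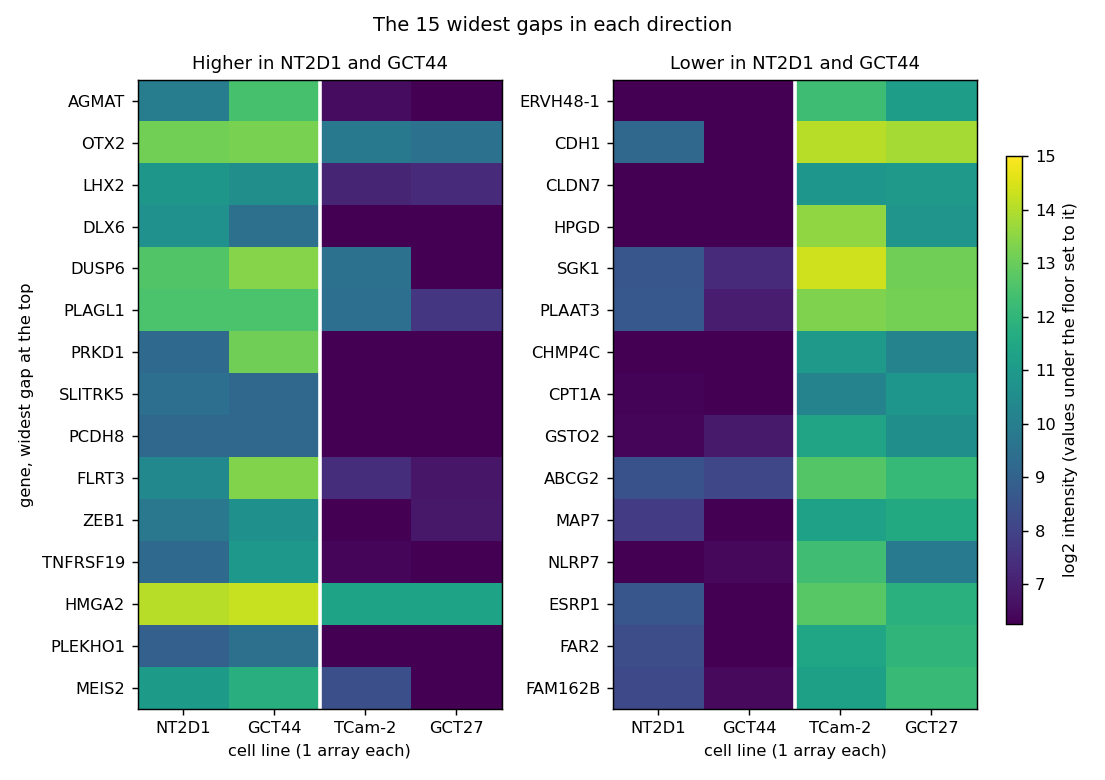
Heat map of log2 intensity, with values under the floor set to it, for the 15 genes with the widest gaps in each direction, in the columns NT2D1, GCT44, TCam-2 and GCT27 with 1 array each; the white line separates the pairs. In the left panel the first 2 columns are brighter for every gene, from AGMAT (10.5-fold) to MEIS2 (6.27-fold), and in the right panel they are darker for every gene, from ERVH48-1 (at least 28.9-fold) to FAM162B (8.23-fold).

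The ERK feedback genes gave 2 members of the higher set and none of the lower set among 18 compared. The share higher was 11.1%, against 1.25% of all genes compared. DUSP6 was given as a marker of this pairing at the outset, so its place in that share was fixed beforehand. All 29 lists were chosen with earlier results of these data known, so their shares are a description. DUSP6, the phosphatase that inactivates ERK, had 6375 units in NT2D1 and 10955 in GCT44, against 744 in TCam-2 and 75.5 in GCT27. It was several-fold higher in both lines than in TCam-2 and lay under the floor in GCT27, with a gap of 8.57-fold. Its other 2 probe sets showed gaps of 3.13 and 2.86 on the log2 scale. DUSP4, a nuclear phosphatase of the same family, had 1715 units in NT2D1 and 1162 in GCT44, against 309 in TCam-2 and 235 in GCT27, and both of its other probe sets met the rule as well. The other 16 genes of the list fell into neither set. The median difference between the pair means was -0.28 on the log2 scale over the 18 genes, 12 of which had a negative difference, against a median of 0.01 over all genes compared. SPRY4, which limits receptor signalling upstream of ERK, had 451 units in NT2D1 and 951 in GCT44, against 663 in TCam-2 and 602 in GCT27. ETV5, an ERK-induced transcription factor, had 2546 units in NT2D1 and 727 in GCT44, against 1138 in TCam-2 and 3869 in GCT27. In both genes the pairs overlapped, and these 2 genes were chosen after their values were seen. None of 14 fibroblast growth factor ligands, receptors and related genes met the rule, and their median difference was -0.53. At 1.25% higher and 1.76% lower over all genes compared, a list this small would often hold no member.

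SP8 had 4353 units in NT2D1 and 5042 in GCT44, against 1092 in TCam-2 and 134 in GCT27. NT2D1 and GCT44 had the highest values, TCam-2 was intermediate and GCT27 was the lowest, with a gap of 3.98-fold. SP8 has 1 further probe set that did not reach 153 units, the level of 2 times the floor at which a probe set was read, and with the median over probe sets its gap was 0. Of the 19 SP and KLF factors compared, SP8 was the only one in the higher set, or 5.26% against 1.25% of all genes compared. SP8 too was given as a marker of this pairing at the outset, so that share was fixed beforehand and shows nothing about the list. KLF5, a factor of epithelial and pluripotent cells, had 165 units in NT2D1 and 19.8 in GCT44, against 4124 in TCam-2 and 630.3 in GCT27. The only further probe set of KLF5 fell short of the rule, with a gap of 0.91 on the log2 scale in the same direction. KLF9, which responds to steroid and thyroid hormones, had 63.5 units in NT2D1 and 10.99 in GCT44, against 347 in TCam-2 and 172 in GCT27. Both lay lower in NT2D1 and GCT44, or 10.5% of the list against 1.76% of all genes compared. KLF9 did not meet the rule with the median over probe sets or with a floor at the 70th percentile of all values, 252 units.

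The widest gaps of the higher set included transcription factors of embryonic patterning. OTX2, a homeobox factor of the anterior neural plate and of primed pluripotent cells, had 9043 units in NT2D1 and 9762 in GCT44, against 892 in TCam-2 and 749.9 in GCT27. The values of both lines were close to each other and the other pair lay 10.1-fold lower at the nearest. LHX2, a LIM homeobox factor of the forebrain and eye, had 1909 units in NT2D1 and 1516 in GCT44, against 145 in TCam-2 and 157 in GCT27. DLX6, a homeobox factor of the face and forebrain, had 1658 units in NT2D1 and 709.99 in GCT44, against 30.2 in TCam-2 and 2.84 in GCT27. The low pair lay low but above the floor for LHX2 and under it for DLX6, giving gaps of 9.65-fold and at least 9.29-fold. MEIS2, a homeobox cofactor of HOX proteins, had 2081 units in NT2D1 and 3389.6 in GCT44, against 332 in TCam-2 and 66.5 in GCT27. PLAGL1, an imprinted zinc finger gene, had 5901 units in NT2D1 and 5909 in GCT44, against 698 in TCam-2 and 201 in GCT27, nearly the same value in both high lines. HMGA2, an architectural chromatin protein of embryonic and tumour cells, had 17148 units in NT2D1 and 19498 in GCT44, against 2567 in TCam-2 and 2549 in GCT27. All 4 lines were well above the floor for HMGA2, and its gap was 0.55 on the log2 scale with the median over probe sets and 0.78 without probe sets that can match several transcripts. The position of each gene in both lines is shown in the scatter plot against the mean of TCam-2 and GCT27.

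**Figure D2:**
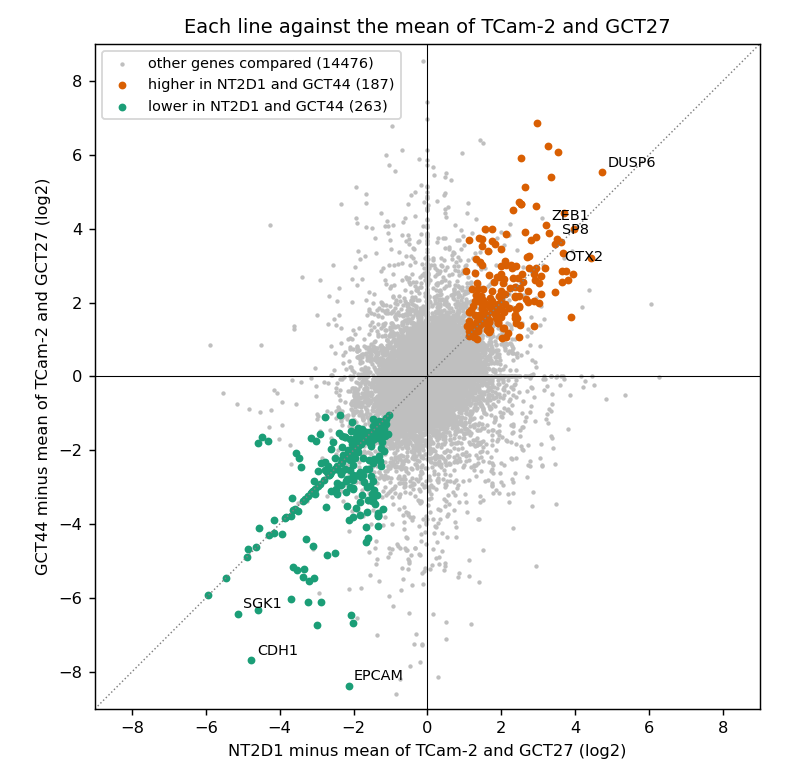
Difference of NT2D1 (horizontal axis) and of GCT44 (vertical axis) from the mean of TCam-2 and GCT27, on the log2 scale with values under the floor set to it; each point is 1 gene, coloured by whether it met the gap rule, and the dotted line marks equal differences. DUSP6 (8.57-fold gap) lies at the upper right near the dotted line, and CDH1 (25.0-fold) at the lower left below it, while EPCAM is far lower in GCT44 (69.2 units) than in NT2D1 (5782 units).

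Genes of epithelial adhesion were the list with the most members in the lower set. Of 25 compared, 9 were lower in NT2D1 and GCT44, or 36% against 1.76% of all genes compared, and none was higher. The list was chosen with earlier results of these data known, so this share is a description and no enrichment was tested. The median difference of the list was -1.75 on the log2 scale. It lay between -1.78 and -1.74 with arrays centred on their median, quantile normalized or scaled to the spiked-in controls. TCam-2 was the highest line for 19 of the 25 genes, GCT27 for 3, GCT44 for 2 and NT2D1 for 1. A negative difference was found for 24 of the 25 genes. The exception was the desmosomal cadherin DSC2, chosen here for its sign, with 1969 units in NT2D1 and 13007 in GCT44, against 7616 in TCam-2 and 1956 in GCT27.

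CDH1, which encodes E-cadherin, had 580.4 units in NT2D1 and 5.77 in GCT44, against 17193 in TCam-2 and 14524 in GCT27. Both TCam-2 and GCT27 were very high, NT2D1 was 25.02-fold below the nearer of them and GCT44 was under the floor. CLDN7, a tight junction claudin, had 3.21 units in NT2D1 and 4.05 in GCT44, against 1830.1 in TCam-2 and 1963 in GCT27. It was under the floor in both lines, and the gap was at least 23.9-fold. EPCAM, an epithelial cell adhesion molecule, had 5782 units in NT2D1 and 69.2 in GCT44, against 28656 in TCam-2 and 22389.9 in GCT27. NT2D1 kept a high level of EPCAM while GCT44 was under the floor, and the gap of 3.87-fold is set by NT2D1. The splicing regulator ESRP1, which keeps epithelial forms of transcripts, had 386 units in NT2D1 and 7.39 in GCT44, against 6862 in TCam-2 and 3598 in GCT27. Its other probe set showed a gap of 4.002 on the log2 scale in the same direction. GRHL2, a transcription factor that activates epithelial junction genes, had 38.9 units in NT2D1 and 45.02 in GCT44, against 2128 in TCam-2 and 567 in GCT27. CDH3, which encodes P-cadherin and is the neighbour of CDH1 on chromosome 16, had 332 units in NT2D1 and 7.41 in GCT44, against 2189.9 in TCam-2 and 2168 in GCT27. GRHL2 was under the floor in both NT2D1 and GCT44, CDH3 in GCT44. SPINT2, an inhibitor of membrane serine proteases, had 710.04 units in NT2D1 and 66.3 in GCT44, against 6203 in TCam-2 and 4491 in GCT27. RAB25, a small GTPase of epithelial vesicle traffic, had 58.7 units in NT2D1 and 149 in GCT44, against 2139.6 in TCam-2 and 316 in GCT27. MARVELD3, a tight junction protein, had 94.99 units in NT2D1 and 73.4 in GCT44, against 394 in TCam-2 and 587 in GCT27. RAB25 and MARVELD3 did not meet the rule with that stricter floor of 252 units. Leaving out GCT44 gave 13 lower genes on the list, and leaving out NT2D1 gave 12. Such counts can only grow when a line is left out, so they do not test the result. Over all genes compared, the lower genes rose from 263 to 671 without GCT44 and to 1032 without NT2D1.

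Genes of mesoderm and mesenchyme gave 4 members of the higher set and none of the lower set among 25 compared, or 16% against 1.25% of all genes compared. The median difference was 0.58 on the log2 scale, and 0.55 when arrays were scaled to the spiked-in controls. The difference was positive for 16 genes and negative for 9. ZEB1, a repressor of epithelial genes, had 858 units in NT2D1 and 1584 in GCT44, against 6.72 in TCam-2 and 114 in GCT27. It was under the floor in TCam-2 and just above it in GCT27, with a gap of 7.55-fold, and both of its other probe sets that reached 153 units met the rule. ZEB2, its paralogue, had 1125 units in NT2D1 and 232 in GCT44, against 5.59 in TCam-2 and 16.1 in GCT27. Its gap of at least 3.04-fold rested on a level in GCT44 under the stricter floor of 252 units, and it did not meet the rule with the median over probe sets or without probe sets that can match several transcripts. CDH11, a mesenchymal cadherin, had 3017 units in NT2D1 and 1338 in GCT44, against 3.30 in TCam-2 and 509 in GCT27. PDGFRA, the receptor alpha chain for platelet-derived growth factor, had 367 units in NT2D1 and 1001 in GCT44, against 19.7 in TCam-2 and 112 in GCT27. CDH11 did not meet the rule without the probe sets that can match several transcripts or with scaling to the spiked-in controls, where its gap was 0.84. PDGFRA did not meet it with the median over probe sets or with the stricter floor. The most negative differences of the list, none of which met the rule, were -2.98 for the type I collagen gene COL1A2, -1.90 for LUM, -1.73 for the type III collagen gene COL3A1 and -1.27 for TBXT, a factor of early mesoderm. COL1A2 had 61.1 units in NT2D1 and 2600.2 in GCT44, against 9209.5 in TCam-2 and 1345 in GCT27. LUM, a proteoglycan of connective tissue, had 241 units in NT2D1 and 63.5 in GCT44, against 3354 in TCam-2 and 47.6 in GCT27. TCam-2 was the highest line for all 4 of these genes. None of the 9 fibroblast genes compared met the rule, and their median difference was -0.14. With 1.25% higher and 1.76% lower over all genes compared, so short a list would often hold no member. The levels of both lists are shown in the dot plot of listed genes.

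**Figure D3:**
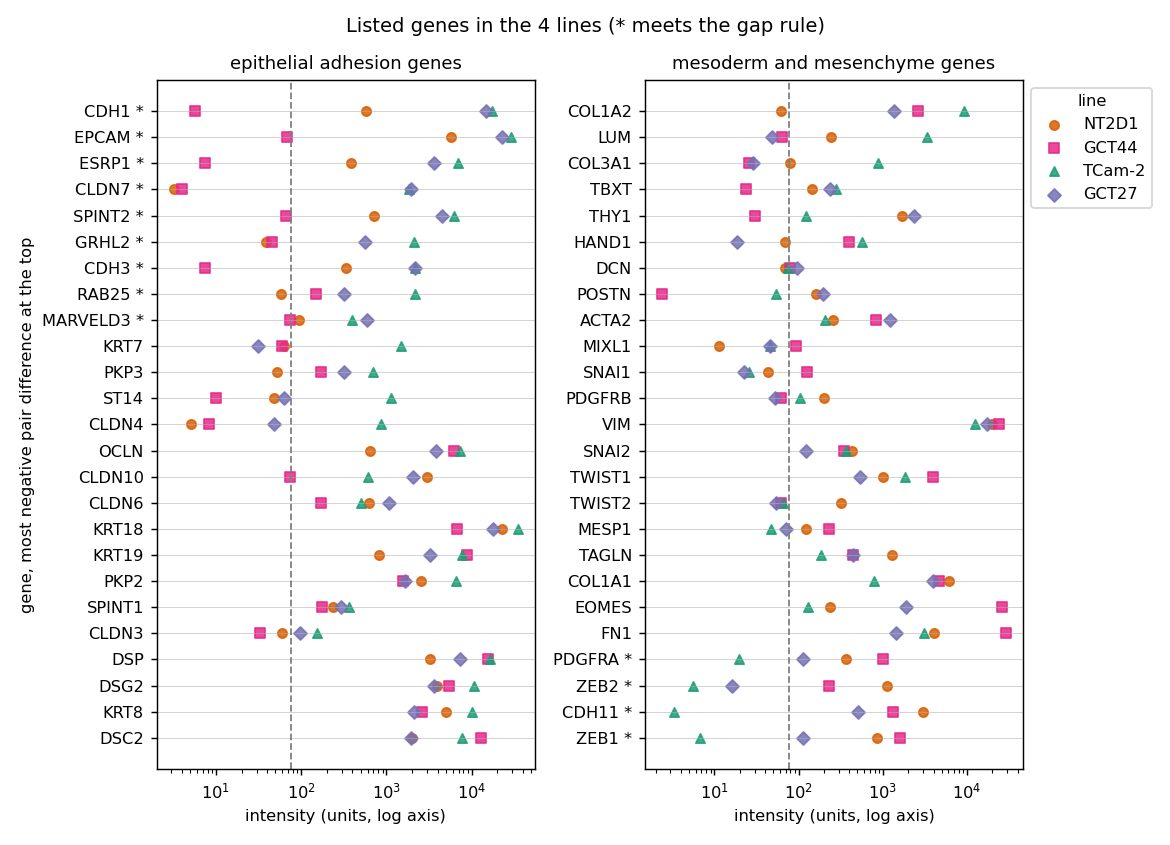
Intensity on a log axis of each gene of the epithelial adhesion list (left) and of the mesoderm and mesenchyme list (right) in NT2D1, GCT44, TCam-2 and GCT27, 1 point per line; the dashed line is the floor of 76.4 units and an asterisk marks a gene that met the rule. In the left panel the points of TCam-2 and GCT27 lie to the right for the 9 marked genes, from CDH1 (-6.23 log2 difference between the pair means) to MARVELD3 (-2.50), and in the right panel those of NT2D1 and GCT44 lie to the right for ZEB1, CDH11, ZEB2 and PDGFRA.

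Of 28 extracellular matrix genes, 3 were in the higher set, or 10.7% against 1.25% of all genes compared. None was in the lower set, and the median difference was 0.44. The difference was positive for 17 genes and negative for 11, the most negative being -1.99 for LAMA4, a laminin chain. COL2A1, the fibrillar collagen of cartilage, had 1426 units in NT2D1 and 5939 in GCT44, against 259.7 in TCam-2 and 45.3 in GCT27. COL4A6, a basement membrane collagen, had 2147 units in NT2D1 and 7088 in GCT44, against 493 in TCam-2 and 481 in GCT27. FBN2, a microfibril protein of embryonic tissue, had 3543 units in NT2D1 and 15687 in GCT44, against 259.6 in TCam-2 and 1441 in GCT27. GCT44 was the highest line for all 3 genes. COL4A6 and FBN2 did not meet the rule with the median over probe sets.

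Of 19 neural and ectoderm genes, 3 were in the higher set, or 15.8% against 1.25% of all genes compared. None was in the lower set, and the median difference was 0.49. The difference was positive for 12 genes and negative for 7, the most negative being -2.11 for SYT1, a sensor of synaptic vesicle release. Besides LHX2 these were FABP7, a fatty acid binding protein of radial glia, and NCAM1, a neural cell adhesion molecule. FABP7 had 529 units in NT2D1 and 2699 in GCT44, against 195 in TCam-2 and 204 in GCT27. NCAM1 had 292 units in NT2D1 and 295 in GCT44, against 50.9 in TCam-2 and 64.8 in GCT27. Neither met the rule with the median over probe sets, nor NCAM1 with the stricter floor. Several wide gaps outside the lists were of cell surface proteins. SLITRK5, a neuronal transmembrane protein, had 693 units in NT2D1 and 587 in GCT44, against 5.04 in TCam-2 and 32.5 in GCT27. PCDH8, a protocadherin, had 586 units in NT2D1 and 587 in GCT44, against 4.42 in TCam-2 and 14.5 in GCT27. Both were close in NT2D1 and GCT44 and under the floor in the other pair. FLRT3, a transmembrane protein that binds FGF receptors, had 1303 units in NT2D1 and 10273 in GCT44, against 170.3 in TCam-2 and 109 in GCT27. TNFRSF19, a receptor of the tumour necrosis factor family, had 612 units in NT2D1 and 1952 in GCT44, against 84.4 in TCam-2 and 63.8 in GCT27. GCT44 exceeded NT2D1 severalfold for FLRT3 and TNFRSF19. The gap of TNFRSF19 was 0.19 on the log2 scale with the median over probe sets. PRKD1, the kinase protein kinase D1, had 603 units in NT2D1 and 8809 in GCT44, against 67.4 in TCam-2 and 13.2 in GCT27. PLEKHO1, a pleckstrin homology domain protein, had 493 units in NT2D1 and 723 in GCT44, against 12.8 in TCam-2 and 33.97 in GCT27. PRKD1 was far higher in GCT44 than in NT2D1, and both genes were under the floor in TCam-2 and GCT27. Their gaps were 0.98 for PRKD1 with the median over probe sets and 0.97 for PLEKHO1 with the stricter floor. AGMAT had 977 units in NT2D1 and 5653 in GCT44, against 93.3 in TCam-2 and 23.8 in GCT27, and its gap was 0.30 when probe sets that can match several transcripts were left out.

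Signalling pathway lists held few members each, but their shares are to be read against 1.25% higher and 1.76% lower over all genes compared. Of 29 WNT pathway genes, FZD2 and SFRP1 were in the higher set, or 6.9%, and none was lower. The median difference of the WNT list was 0.29, and 0.03 with scaling to the spiked-in controls. FZD2, a WNT receptor, had 2413 units in NT2D1 and 1339 in GCT44, against 212 in TCam-2 and 380.4 in GCT27. SFRP1, a secreted WNT antagonist, had 5857 units in NT2D1 and 3379 in GCT44, against 705 in TCam-2 and 310.2 in GCT27. SFRP1 was also the single gene meeting the rule among 18 genes known as methylation targets in tumours, or 5.56%. Their median difference was 0.10 and -0.09 with that scaling. Of 30 NODAL, activin and BMP genes, BMP4 was the only one that met the rule, or 3.33%, and the median difference was 0.46. BMP4, a ligand of mesoderm and germ cell induction, had 797 units in NT2D1 and 1344 in GCT44, against 222 in TCam-2 and 237 in GCT27.

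Of 19 NOTCH and Hedgehog genes 1 was higher (5.26%) and 2 were lower (10.5%), with a median difference of -0.13. The shares over all genes compared were 1.25% and 1.76%. PTCH1, the Hedgehog receptor and a target of the pathway, had 6757 units in NT2D1 and 3211 in GCT44, against 891 in TCam-2 and 331 in GCT27. DLL3, an inhibitory NOTCH ligand, had 62.2 units in NT2D1 and 58.5 in GCT44, against 228 in TCam-2 and 388 in GCT27. HEY1, a NOTCH target gene, had 119.5 units in NT2D1 and 125 in GCT44, against 1276 in TCam-2 and 271 in GCT27. None of these 3 met the rule with the median over probe sets, nor DLL3 and HEY1 with the stricter floor, nor HEY1 without probe sets that can match several transcripts. Of 11 retinoic acid pathway genes, CRABP2, a cellular retinoic acid binding protein, had 1262 units in NT2D1 and 1776 in GCT44, against 216 in TCam-2 and 439 in GCT27. ALDH1A3, an enzyme of retinoic acid synthesis, had 403 units in NT2D1 and 6.35 in GCT44, against 922 in TCam-2 and 930.3 in GCT27. The binding protein was higher and the enzyme lower in NT2D1 and GCT44, each being 9.09% of the list. The median difference of the list was 0.69. ALDH1A3 did not meet the rule with the median over probe sets.

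Of 21 growth factor receptor and IGF axis genes, 2 were higher and 2 lower, with a median difference of -0.14. Each direction held 9.52% of the list, against 1.25% higher and 1.76% lower over all genes compared. Besides PDGFRA, IRS1, an adaptor of insulin and IGF receptors, was higher with 1955 units in NT2D1 and 1774 in GCT44, against 747 in TCam-2 and 509.7 in GCT27. IRS4, another such adaptor, was lower with 119 units in NT2D1 and 30.8 in GCT44, against 242 in TCam-2 and 1115 in GCT27. IGFBP7, a secreted IGF binding protein, was lower with 2239 units in NT2D1 and 647 in GCT44, against 6569 in TCam-2 and 12398 in GCT27. IRS1 and IRS4 did not meet the rule with the median over probe sets or with scaling to the spiked-in controls, nor IRS4 with the stricter floor. In the mitosis and cell cycle list of 23 genes only CDK6, a kinase of the G1 phase, met the rule, with 1814 units in NT2D1 and 2839 in GCT44, against 349 in TCam-2 and 390.04 in GCT27. Its gap was 0.28 with the median over probe sets, and the median difference of the list was 0.11, or -0.15 with scaling to the spiked-in controls. CDK6 made up 4.35% of that list, against 1.25% higher over all genes compared.

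Among 19 pluripotency genes, OTX2 was higher and DPPA2 and TFCP2L1 were lower, and the median difference was -0.66. The shares were 5.26% higher and 10.5% lower, against 1.25% and 1.76% of all genes compared. DPPA2, a chromatin factor of pluripotent cells, had 216 units in NT2D1 and 8.28 in GCT44, against 1908 in TCam-2 and 1761 in GCT27. TFCP2L1, a factor of naive pluripotency, had 84.7 units in NT2D1 and 45.7 in GCT44, against 2528 in TCam-2 and 361 in GCT27. Among 18 germ cell genes none was higher and 2 were lower, with a median difference of -0.57. The share lower was 11.1%, against 1.76% of all genes compared. SOX15, a SOX factor found in primordial germ cells, had 109 units in NT2D1 and 77.97 in GCT44, against 878 in TCam-2 and 508 in GCT27. In the only further probe set of SOX15 the pairs overlapped. UTF1, a chromatin protein of pluripotent and germ cells, had 86.01 units in NT2D1 and 18.1 in GCT44, against 383 in TCam-2 and 522 in GCT27. For these 4 lower genes TCam-2 and GCT27 were each at least 361 units, and GCT44 did not exceed 78.0 units. TFCP2L1 and UTF1 did not meet the rule with the stricter floor.

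Of 18 genes of the DNA methylation machinery, UHRF1 was higher and DNMT3L and TET1 were lower, with a median difference of -0.05. The shares were 5.56% higher and 11.1% lower, against 1.25% and 1.76% of all genes compared. UHRF1, which brings the maintenance methyltransferase to replicated DNA, had 7482 units in NT2D1 and 10173 in GCT44, against 1825 in TCam-2 and 2969 in GCT27. TET1, which oxidises methylated cytosine, had 2232 units in NT2D1 and 1309 in GCT44, against 12665 in TCam-2 and 4951 in GCT27. DNMT3L, a catalytically inactive cofactor of germ cell methylation, had 15.04 units in NT2D1 and 8.92 in GCT44, against 2083 in TCam-2 and 189 in GCT27. UHRF1 and TET1 were above the floor in all 4 lines, whereas DNMT3L was highest in TCam-2 and low in GCT27. TET1 did not meet the rule with the median over probe sets, nor DNMT3L with the stricter floor. Of 18 imprinted genes, PLAGL1 and DLK1 were in the higher set, or 11.1% against 1.25% of all genes compared. DLK1, a transmembrane protein of the NOTCH ligand family, had 1404 units in NT2D1 and 1139 in GCT44, against 325 in TCam-2 and 192 in GCT27. The median difference of the imprinted genes was -0.05. DLK1 did not meet the rule with the median over probe sets or without probe sets that can match several transcripts.

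Lists of metabolism and defence also held members of the lower set. Among 21 hypoxia and glycolysis genes, LDHA, the lactate dehydrogenase A chain, had 4538 units in NT2D1 and 2427 in GCT44, against 13204 in TCam-2 and 28655 in GCT27. ENO2, an enolase of glycolysis, had 1205 units in NT2D1 and 1021 in GCT44, against 6719 in TCam-2 and 3304 in GCT27. CA12, a carbonic anhydrase, was higher with 280.5 units in NT2D1 and 341 in GCT44, against 99.2 in TCam-2 and 115 in GCT27, and did not meet the rule with the median over probe sets or the stricter floor. The median difference of the list was -0.25. The shares were 4.76% higher and 9.52% lower, against 1.25% and 1.76% of all genes compared. Among 25 antigen presentation and interferon genes the median difference was -0.50. The share lower was 8%, against 1.76% of all genes compared. IFI6, an interferon-induced protein, had 71.5 units in NT2D1 and 106 in GCT44, against 502 in TCam-2 and 551 in GCT27. TAPBP, a chaperone of peptide loading onto MHC class I, had 98.2 units in NT2D1 and 99.5 in GCT44, against 202 in TCam-2 and 288 in GCT27. Both lay lower in NT2D1 and GCT44, neither met the rule with the stricter floor, and TAPBP did not meet it with the median over probe sets. The trophoblast list (16 genes, median difference -0.83) and the cancer-testis list (14 genes, 0.48) held 1 lower gene each. These made up 6.25% and 7.14% of the lists, against 1.76% of all genes compared. PAGE4 had 8.75 units in NT2D1 and 5.31 in GCT44, against 356 in TCam-2 and 176 in GCT27. CTCFL, a testis paralogue of the insulator protein CTCF, had 49.1 units in NT2D1 and 41.98 in GCT44, against 175 in TCam-2 and 199 in GCT27. Both were under the floor in NT2D1 and GCT44 and did not meet the rule with the stricter floor.

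No member fell into 8 lists, namely the FGF genes above, 19 yolk sac and endoderm genes, 20 HOX genes, 19 p53 target and apoptosis genes, 27 metallothionein and oxidative defence genes, 7 blood cell genes, 9 fibroblast genes and 9 housekeeping genes. Over all genes compared the shares were 1.25% higher and 1.76% lower, so lists this small would often be empty. The median difference was 0.73 for the yolk sac and endoderm list, where 18 of 19 genes had a positive difference. GCT44 was the highest line for 16 of the 19, NT2D1 for GPC3 and RBP4, and GCT27 for APOB. APOA2, an apolipoprotein, had 20.6 units in NT2D1 and 30689 in GCT44, against 89.2 in TCam-2 and 66.6 in GCT27, and GCT44 alone was high. GPC3, a glypican, had 2578 units in NT2D1 and 740.3 in GCT44, against 677 in TCam-2 and 1019 in GCT27, and APOE, another apolipoprotein, had 1405 units in NT2D1 and 5301 in GCT44, against 2696 in TCam-2 and 1655 in GCT27, so not every gene of the list was low outside GCT44. For the other lists without a member the medians were 0.40 for HOX genes, -0.22 for p53 targets, -0.17 for metallothionein and oxidative defence genes, 0.12 for blood cell genes and 0.11 for housekeeping genes. The medians of the blood cell and housekeeping lists were -0.03 and -0.15 with scaling to the spiked-in controls, and that of the housekeeping list was 0.01 with quantile normalization. Scaling to the spiked-in controls, which lowered the median of all genes, moved further medians by over 1.5 times. They became 0.19 for the NODAL, activin and BMP list, 0.18 for extracellular matrix, 0.43 for retinoic acid, 0.47 for yolk sac and endoderm and 0.24 for HOX genes. They became -0.54 for the ERK list, -0.50 for SP and KLF factors, -0.26 for NOTCH and Hedgehog, -0.31 for DNA methylation machinery, -0.31 for imprinted genes, -0.48 for p53 targets, -0.44 for metallothionein and oxidative defence, -0.51 for hypoxia and glycolysis, -0.24 for growth factor receptors and -0.28 for fibroblast genes. Relative to the median of all genes under the same scaling, each of the 29 lists kept its sign as deposited, centred on the median, quantile normalized and scaled to the spiked-in controls. In all, 53 of the 450 selected genes belonged to a list and 397 to none.

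**Figure D4:**
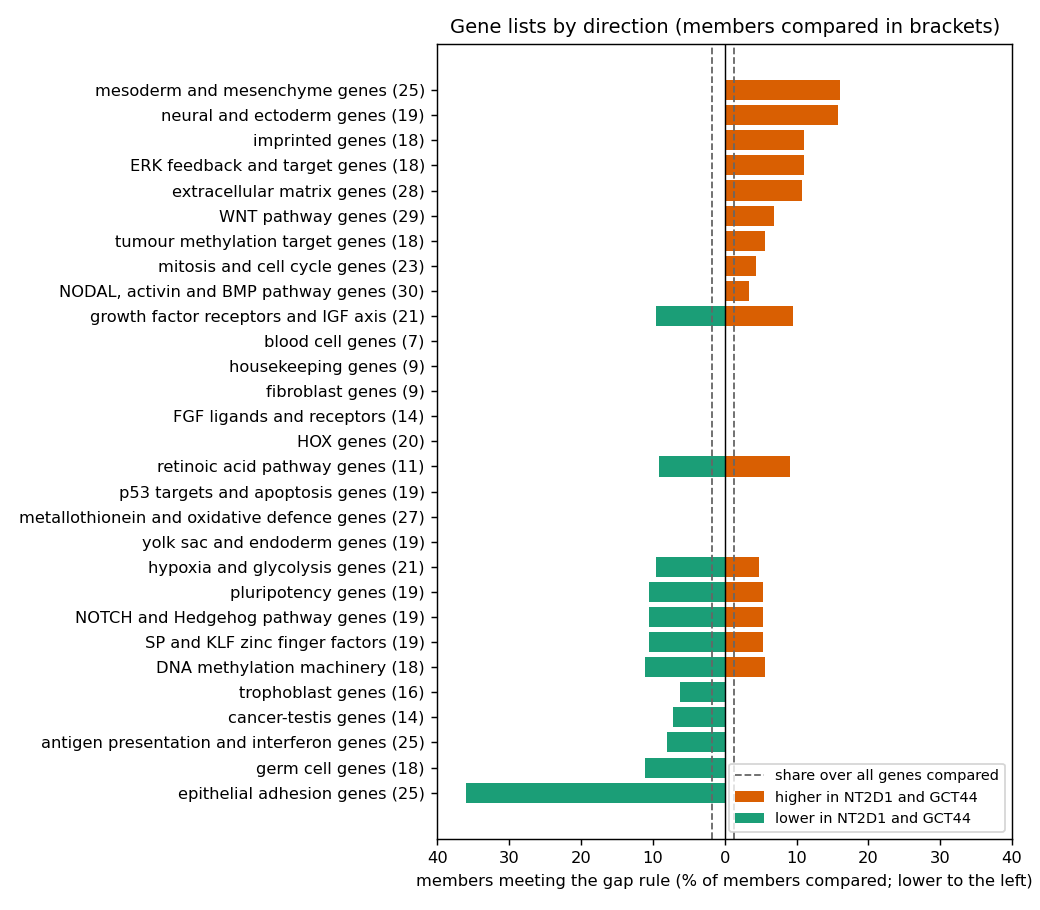
Share of the genes compared in each list that met the gap rule, with genes higher in NT2D1 and GCT44 to the right and genes lower to the left of 0, in percent; brackets give the genes compared and dashed lines the shares over all genes compared (1.25% and 1.76%). The longest bar is the 36% of epithelial adhesion genes that were lower, followed by the 16% of mesoderm and mesenchyme genes that were higher. The lists were chosen with earlier results of these data known, so the bars are a description.

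Outside the lists, the widest gaps of the lower set included enzymes of lipid metabolism and a transporter. ERVH48-1 had 12.2 units in NT2D1 and 70.5 in GCT44, against 5037 in TCam-2 and 2211 in GCT27. HPGD, which inactivates prostaglandins, had 54.5 units in NT2D1 and 14.6 in GCT44, against 11914 in TCam-2 and 1817 in GCT27. Both were under the floor in NT2D1 and GCT44, with gaps of at least 28.9-fold and at least 23.8-fold, and all 3 other probe sets of HPGD met the rule. SGK1, a kinase that regulates ion transport, had 385 units in NT2D1 and 158 in GCT44, against 20956 in TCam-2 and 8742 in GCT27. PLAAT3, a phospholipase and acyltransferase, had 404 units in NT2D1 and 119.97 in GCT44, against 10121 in TCam-2 and 9149.9 in GCT27. CPT1A, which commits fatty acids to import into mitochondria, had 81.5 units in NT2D1 and 52.1 in GCT44, against 1155 in TCam-2 and 1834 in GCT27. Of the 3 other probe sets of CPT1A, 1 met the rule, 1 lay on the same side with a gap under 1 and 1 overlapped. FAR2, a reductase that makes fatty alcohols, had 323 units in NT2D1 and 3.84 in GCT44, against 2738 in TCam-2 and 4009 in GCT27. SGK1 and PLAAT3 were high in both TCam-2 and GCT27, and CPT1A was near or under the floor in both of the low lines. ABCG2, an efflux transporter of drugs and urate, had 355 units in NT2D1 and 278 in GCT44, against 6517 in TCam-2 and 4471 in GCT27. GSTO2, a glutathione transferase of the omega class, had 85.4 units in NT2D1 and 118 in GCT44, against 2628 in TCam-2 and 1559 in GCT27. CHMP4C, a subunit of the ESCRT-III membrane scission complex, had 46.05 units in NT2D1 and 10.05 in GCT44, against 1999 in TCam-2 and 1136 in GCT27. MAP7, a microtubule-associated protein of epithelial cells, had 218 units in NT2D1 and 4.24 in GCT44, against 2466 in TCam-2 and 3006 in GCT27. NLRP7, known for maternal mutations in recurrent hydatidiform mole, had 60.6 units in NT2D1 and 86.7 in GCT44, against 5103 in TCam-2 and 947 in GCT27. FAM162B had 293 units in NT2D1 and 89.6 in GCT44, against 2411 in TCam-2 and 4699.6 in GCT27. The gap was 12.6-fold for ABCG2, 11.3-fold for MAP7 and 10.9-fold for NLRP7.

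The 2 lines of a pair were not equal for many of the genes. In the higher set, GCT44 exceeded NT2D1 for 109 genes and NT2D1 exceeded GCT44 for 78, and in 142 of the 187 the values of both lines lay within 1 on the log2 scale. In the lower set, GCT44 was under the floor for 130 genes and NT2D1 for 80, both were under it for 64, and neither for 117. In the higher set, both TCam-2 and GCT27 were under the floor for 29 genes and neither for 120. TCam-2 and GCT27 lay within 1 on the log2 scale of each other for 193 of the 263 lower genes.

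Gene order was taken from the RefSeq annotation of GRCh38.p14. Among genes compared, 3 neighbouring pairs were both in the higher set and 7 both in the lower set. MSRB3 with HMGA2, IRX3 with CRNDE, and HEIH with LINC00847 were the higher pairs. The lower pairs included CDH3 with CDH1 and UTF1 with VENTX. Those of them that belong to no list or widest gap were named after their values were seen. Over chromosomes 1 to 22 and X, the share of genes compared that were higher ran between 0.196% on chromosome 19 and 2.79% on chromosome 15, against 1.25% over all. The share that were lower ran between 0.441% on chromosome 18 and 3.12% on chromosome 8, against 1.76% over all.

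The genes next to the threshold differ little from those that missed it. On the higher side, GATAD2B, CXXC5 and SUMO3 lay just inside, with gaps of 1.001, 1.007 and 1.011 on the log2 scale. THEM4, ECHDC1 and RRAGD lay just outside, at 0.998, 0.988 and 0.984. On the lower side, KCNS3, ALPL and CFAP92 lay just inside at -1.002, -1.003 and -1.008, and ZYG11A, PCP4L1 and NRK just outside at -0.999, -0.996 and -0.994.

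Probe sets that the rule did not use were read on the same arrays. In the higher set, 91 genes had at least 1 further probe set that reached 153 units, and 96 had none. Of their 140 further probe sets, 63 met the gap rule in the same direction, 53 lay on the same side with a gap under 1, 22 overlapped and 2 lay on the opposite side. In the lower set, 99 genes had at least 1 and 164 had none. Of their 154 further probe sets, 71 met the rule, 50 lay on the same side, 32 overlapped and 1 was opposite. All further probe sets met the rule for 34 genes of the higher set, DUSP6, PLAGL1 and ZEB1 among them, and for 32 genes of the lower set, HPGD, MAP7 and ESRP1 among them. The opposite probe sets belonged to EPB41L5 and RMND5B, which are named for this reason after their values were seen.

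The 250 bases upstream of the annotated start were read from RefSeq (GRCh38.p14) for 157 of the 187 higher genes, 195 of the 263 lower genes and 11927 of the 14926 genes compared. They were searched on both strands for the E-box CAGGTG, the sequence that ZEB1 and ZEB2 are known to bind, which reads CACCTG when it lies on the other strand. This motif was chosen after the members of both sets had been seen, so its shares are a description. It was present in 14.6% (23) of the higher promoters, 29.7% (58) of the lower promoters and 16.4% (1951) of all promoters compared. The median GC content was 65.2% in the higher set, 66.0% in the lower set and 64.4% over all. A ratio of observed to expected CpG of at least 0.6 was found in 73.2% of higher, 65.6% of lower and 74.1% of all promoters. A match says only that the letters are present, and binding by ZEB1, ZEB2 or any other factor was not tested. Of the 25 epithelial adhesion genes compared, 12 had an entry in the promoter table and 5 of these held the motif. They were RAB25, 1 of the 2 lower genes with an entry, and DSC2, DSG2, DSP and OCLN, which did not meet the rule. Shown first are HPGD, GSTO2 and MAP7, lower genes with wide gaps that were picked because they hold the motif. RAB25 and CLDN7 follow, the only 2 of the 9 lower epithelial adhesion genes with an entry. Capitals mark the motif on either strand, each sequence is written 5′ to 3′ along the gene, and it ends at the base before the start.
HPGD: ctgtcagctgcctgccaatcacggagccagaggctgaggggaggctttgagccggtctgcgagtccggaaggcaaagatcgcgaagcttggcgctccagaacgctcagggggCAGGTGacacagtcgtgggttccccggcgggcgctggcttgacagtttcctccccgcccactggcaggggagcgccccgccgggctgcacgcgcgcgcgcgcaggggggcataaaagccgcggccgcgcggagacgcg
GSTO2: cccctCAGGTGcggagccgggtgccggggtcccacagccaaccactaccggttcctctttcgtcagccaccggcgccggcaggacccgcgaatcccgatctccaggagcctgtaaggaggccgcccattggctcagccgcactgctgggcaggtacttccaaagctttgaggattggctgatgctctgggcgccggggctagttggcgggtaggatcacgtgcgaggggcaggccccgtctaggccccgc
MAP7: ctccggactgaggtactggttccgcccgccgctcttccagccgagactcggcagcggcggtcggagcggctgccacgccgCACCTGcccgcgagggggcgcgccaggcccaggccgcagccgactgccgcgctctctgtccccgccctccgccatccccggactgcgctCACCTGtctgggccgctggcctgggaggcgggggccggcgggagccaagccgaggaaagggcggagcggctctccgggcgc
RAB25: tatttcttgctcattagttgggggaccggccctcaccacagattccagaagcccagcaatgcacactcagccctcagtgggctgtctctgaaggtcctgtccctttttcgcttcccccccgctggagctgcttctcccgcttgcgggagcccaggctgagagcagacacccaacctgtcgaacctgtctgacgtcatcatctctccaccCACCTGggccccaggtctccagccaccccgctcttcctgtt
CLDN7: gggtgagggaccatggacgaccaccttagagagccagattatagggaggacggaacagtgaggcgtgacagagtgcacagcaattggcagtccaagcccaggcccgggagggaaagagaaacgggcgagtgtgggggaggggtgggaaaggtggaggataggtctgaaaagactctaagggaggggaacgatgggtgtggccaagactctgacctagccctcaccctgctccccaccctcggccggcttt
The sequences are those of HPGD at chr4:174522489-174522738 (minus strand), GSTO2 at chr10:104268934-104269183 (plus strand), MAP7 at chr6:136550423-136550672 (minus strand), RAB25 at chr1:156060910-156061159 (plus strand) and CLDN7 at chr17:7263214-7263463 (minus strand). HPGD holds 1 copy starting at position -138 from the start, GSTO2 1 copy at -245, MAP7 2 copies at -170 and -81 and RAB25 1 copy at -41. CLDN7 holds none, and neither do the windows of DUSP6 and SP8.

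**Figure D5:**
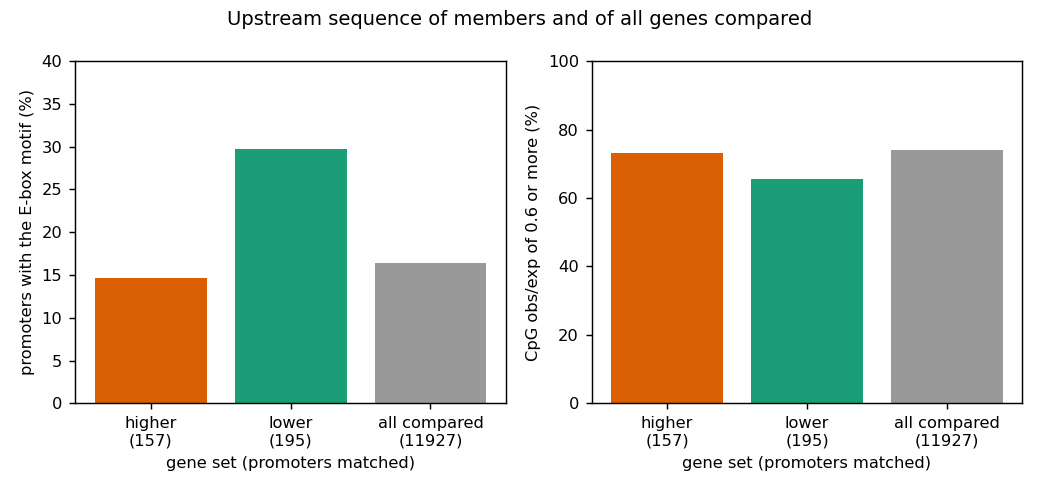
Share of promoters (250 bases upstream) that hold the E-box motif on either strand (left) and that have a ratio of observed to expected CpG of at least 0.6 (right), in percent, for the higher set, the lower set and all genes compared; brackets give the promoters matched. The lower set stands at 29.7% for the motif, against 16.4% over all genes compared, and at 65.6% for CpG, against 74.1%.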

How the data were processed

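The authors hybridized biotin-labelled total RNA of 4 cell lines to Affymetrix U133 Plus arrays, 1 array per line. The deposited values are linear intensity values for 54675 probe sets, with a trimmed mean of 500.1 on every array (2% trimmed at each end). RMA is named without a version in the submitters' processing notes, but it gives log2 values, so these are not its usual output, and log2 was taken here.

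Gene symbols came from the array annotation. 41097 probe sets had 1 gene, 1801 had several and 11777 were not listed. For each of 19775 genes, the probe set listed for that gene alone whose mean log2 value was highest was used. Genes reaching the median of all values (76.4 units) in any line were compared, and 4849 were under it everywhere. The order of low intensities is not reliable on such arrays, so lower values were set to that floor, and a fold against it is a lower bound. Wherever the text names a pair difference, it is the mean log2 value of NT2D1 and GCT44 minus that of TCam-2 and GCT27. Named genes are the 15 widest gaps each way, DUSP6 and SP8, all selected genes in a list, and the 3 genes on each side of each threshold. Other genes named were chosen after their values were seen. The members and the 29 lists were chosen with earlier results of these data known. Alternatives were the choice of probe set, the floor, the scaling, the gap, the pair means and leaving out each line. The gap rule was tested on simulated data. Python 3.11.15, numpy 2.4.6, pandas 2.3.3 and matplotlib 3.10.9 were used. The DNA methylation arrays of the study were not used here.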

Additional observations from a re-analysis of the deposited data

How the results depend on the processing

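Counts are given as genes higher and genes lower in NT2D1 and GCT44, 187 and 263 in the setting reported. They were 465 and 646 with no floor, 116 and 138 with the floor at the 70th percentile (252 units), 115 and 405 with scaling to the spiked-in controls, 34 and 63 with a gap of 2 on the log2 scale, and 1091 and 1322 with a difference of at least 1 between pair means. A stricter floor or gap can only remove genes, and pair means can only add them. Leaving out 1 line at a time gave 569 to 1035 higher and 671 to 1078 lower genes, and this can only add genes too, because fewer lines must be separated. The fewest higher genes were found without TCam-2 and the fewest lower genes without GCT44. The median over probe sets gave 141 and 198, of which 102 and 165 were selected in the setting reported. Counts stayed within 1.5 times with arrays centred on their median (189 and 270), quantile normalization (183 and 269), without probe sets that can match several transcripts (157 and 201), and with probe sets chosen by linear means (192 and 270), an alternative chosen after seeing the data. The cause of the shift under the spiked-in controls was not tested. Of 95 members named with a value, none changed direction, 32 no longer met the rule with the median over probe sets, 24 with the stricter floor, 8 with scaling to the spiked-in controls, 8 without probe sets that can match several transcripts (members left with no probe set are not counted), 4 with arrays centred on their median, 2 with quantile normalization and 50 with a gap of 2. No paired analysis was possible because each line is 1 array and no result comes from a test. Signal over background could not be measured, since the deposited values hold no detection calls.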

Other observations

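The genes named here belong to the selected sets and to none of the lists, and were chosen after their values were seen, so they stand for no group. OVOL2, a transcription factor that maintains epithelial identity, had 37.1 units in NT2D1 and 68.96 in GCT44, against 1648 in TCam-2 and 285 in GCT27. PRSS8, a membrane serine protease of epithelia, had 95.01 units in NT2D1 and 113 in GCT44, against 886 in TCam-2 and 721 in GCT27. KDF1, a regulator of epidermal differentiation, had 7.49 units in NT2D1 and 7.74 in GCT44, against 278 in TCam-2 and 203 in GCT27. TJP3, a tight junction scaffold, had 45.01 units in NT2D1 and 58.2 in GCT44, against 551 in TCam-2 and 171 in GCT27. CRB3, a polarity protein of the apical membrane, had 102 units in NT2D1 and 326 in GCT44, against 715 in TCam-2 and 678 in GCT27. SCNN1A, a subunit of the epithelial sodium channel, had 554 units in NT2D1 and 27.4 in GCT44, against 3061 in TCam-2 and 8938 in GCT27. OVOL2, KDF1 and TJP3 were under the floor in both NT2D1 and GCT44, and CRB3 was the only one of these 6 genes above 200 units in GCT44. All 6 were in the lower set. OVOL2, TJP3 and SCNN1A did not meet the rule with the median over probe sets, OVOL2, TJP3 and KDF1 with the stricter floor, OVOL2 without probe sets that can match several transcripts, and CRB3 with arrays centred on their median, where its gap was -0.98.

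The next genes were in the higher set. IRX3, an Iroquois homeobox factor, had 1103 units in NT2D1 and 5206 in GCT44, against 123 in TCam-2 and 312 in GCT27. MSX1, a homeobox factor of the face and limb, had 225 units in NT2D1 and 1220.2 in GCT44, against 27.6 in TCam-2 and 35.96 in GCT27. DACH1, a transcriptional cofactor of eye and limb development, had 739.6 units in NT2D1 and 3287 in GCT44, against 18.03 in TCam-2 and 217 in GCT27. All 3 genes were severalfold higher in GCT44 than in NT2D1. NKX3-2, a homeobox factor of the skeleton and gut, had 687 units in NT2D1 and 685 in GCT44, against 177 in TCam-2 and 330.4 in GCT27. GPC4, a glypican of the cell surface, had 4799 units in NT2D1 and 4774 in GCT44, against 748 in TCam-2 and 2294 in GCT27, and GPC6, a related glypican, had 2579 units in NT2D1 and 4642 in GCT44, against 124 in TCam-2 and 913 in GCT27. FLRT2, a relative of FLRT3, had 1289 units in NT2D1 and 1838 in GCT44, against 9.05 in TCam-2 and 485 in GCT27. EZH2, the catalytic subunit of Polycomb repressive complex 2, had 3911 units in NT2D1 and 2653 in GCT44, against 557 in TCam-2 and 891 in GCT27. MSX1, GPC4 and FLRT2 did not meet the rule with the median over probe sets, NKX3-2 and GPC4 with scaling to the spiked-in controls, and MSX1 with the stricter floor or without probe sets that can match several transcripts. These levels carry no test.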
